A study of Anas platyrhynchos x Cairina moschata with 205 samples.

Results

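HGF, FGFR2 and TYMS, 3 of the 81 genes measured in the liver of mule ducks, were followed by their gene symbols in every liver of the study, in the thermal manipulated (TM) and the control group at all 13 sampling points. HGF encodes hepatocyte growth factor, FGFR2 a receptor for fibroblast growth factors, and TYMS thymidylate synthase. The livers came from mule duck embryos and hatchlings (Anas platyrhynchos x Cairina moschata), a sterile hybrid raised for fatty liver, all of genotype H85. In the TM group the temperature of the incubator was raised by 1 °C for 16 h a day from embryonic day 13 to 27 (E13 to E27), and in the control group it was kept constant. The first trial sampled E13 at 7 points, the first at 30 min after the increase began, the next at each full hour to 5 h and the last at 7 h, and the second sampled E12, E16, E20, E24, E28 and E30. Each group held 8 livers at each point, except that 5 control livers of E16 are analysed here. E12 precedes the increase in temperature and E28 and E30 follow it. The question at each point was whether the level of these genes differed between the incubation temperatures. At any one point before the common hatchery all TM eggs came from 1 incubator and all control eggs from another, so temperature and incubator cannot be told apart, and a p-value measures the spread between livers only.

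The embryonic liver grows by division of hepatocytes and of the cells around them. Hepatocyte growth factor is secreted mainly by non-parenchymal cells of the liver and drives hepatocytes to divide through the receptor tyrosine kinase MET. FGFR2 is a receptor tyrosine kinase of the cell membrane that passes the signal of fibroblast growth factors to pathways of growth and differentiation, and fibroblast growth factors take part in early liver development. Thymidylate synthase makes the thymidine nucleotide needed for DNA replication with a folate cofactor, and its transcript is most abundant in dividing cells. In mammals these 3 genes act at different steps, HGF as a secreted ligand, FGFR2 as a receptor of another ligand family and TYMS as an enzyme of DNA synthesis. The study grouped HGF and FGFR2 with proliferation, and TYMS with epigenetics.

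The assays were annotated with the transcripts XM_027459873.1 for HGF, XM_072039854.1 for FGFR2 and XM_027451979.3 for TYMS. Expression was given as a ratio from quantitative PCR, relative to 4 reference genes and to the mean of the gene over the livers of a trial, and is reported here as a log2 ratio. A log2 ratio of 0 is therefore close to the level of an average liver of that trial, and a difference of 1 corresponds to 1 PCR cycle. Levels cannot be compared between the 3 genes or between the trials on this scale. The raw measure is the Ct, the number of PCR cycles needed before the signal passes a set level, and a lower Ct means more transcript. TYMS was detected earliest, with a median Ct of 18.4 cycles over all livers, against 20.8 for FGFR2 and 21.5 for HGF. HGF had a ratio in 179 of 205 livers, FGFR2 in 193 and TYMS in 199. The loss of HGF was largest in control livers of the second trial, with a ratio in 44 of 48 TM livers and 37 of 45 control livers there. The number of ratios per liver was 18 to 81 in the first trial and 20 to 81 in the second. TM replicate 1 of E20 and control replicate 7 of E16 had a Ct for luciferase only among the 4 reference genes, and ratios for 26 and 20 genes. Neither of these livers had a ratio or a Ct for HGF, FGFR2 or TYMS, so the exact tests of the 3 genes on these ratios are the same with and without them. The livers were whole, so a smaller number of cells of a type and less RNA per cell cannot be told apart.

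At E20, after 7 days with the daily increase in temperature, all 3 genes were higher in TM than in control livers. HGF was 1.95-fold, FGFR2 2.27-fold and TYMS 1.89-fold as high in the TM group, on the scale of mean log2 ratios. Each of the 7 TM livers with a value lay above the control median in all 3 genes, but the groups overlapped in each gene.

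HGF, the secreted growth factor, ranged between 0.10 and 1.48 in TM livers at E20, with a median of 1.01. In control livers it ranged between −1.03 and 0.68, with a median of −0.11. The highest TM livers were replicates 5 and 8, at 1.48 and 1.25, and 4 TM livers lay above every control liver. The 3 lowest TM livers, replicates 4, 6 and 2 at 0.10, 0.34 and 0.39, lay within the control range. The mean log2 ratio was 0.81 ± 0.53 in TM livers (SD, n = 7) and −0.15 ± 0.67 in control livers (n = 8), a difference of 0.96 ± 0.32 (SE, exact two-sided permutation test, p = 0.0109).

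FGFR2, the receptor, ranged between −0.38 and 1.24 in TM livers, with a median of 0.62. In control livers it ranged between −1.86 and 0.45, with a median of −0.43. Of the control livers 3 stood low, replicates 3, 4 and 8 at −1.86, −1.68 and −1.54, and 5 lay below every TM liver. The same replicates 3 and 4 were the 2 highest control livers for HGF, at 0.66 and 0.68, so the order of the control livers differed between these genes. FGFR2 averaged 0.56 ± 0.59 in TM livers (SD, n = 7) and −0.62 ± 0.96 in control livers (n = 8), a difference of 1.18 ± 0.42 (SE, exact two-sided permutation test, p = 0.0152).

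TYMS, the enzyme of thymidine nucleotide synthesis, ranged between 0.07 and 1.48 in TM livers, with a median of 0.50. In control livers it ranged between −1.78 and 0.46, with a median of −0.26. TM replicates 5 and 4 were highest, at 1.48 and 1.36, and control replicate 8 stood far below the other control livers at −1.78, the next being −0.52. TYMS averaged 0.64 ± 0.58 in TM livers (SD, n = 7) and −0.28 ± 0.72 in control livers (n = 8), a difference of 0.92 ± 0.34 (SE, exact two-sided permutation test, p = 0.0121). Without control replicate 8 the difference was 0.71 and still passed the exact permutation test (p = 0.0227).

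**Figure D1:**
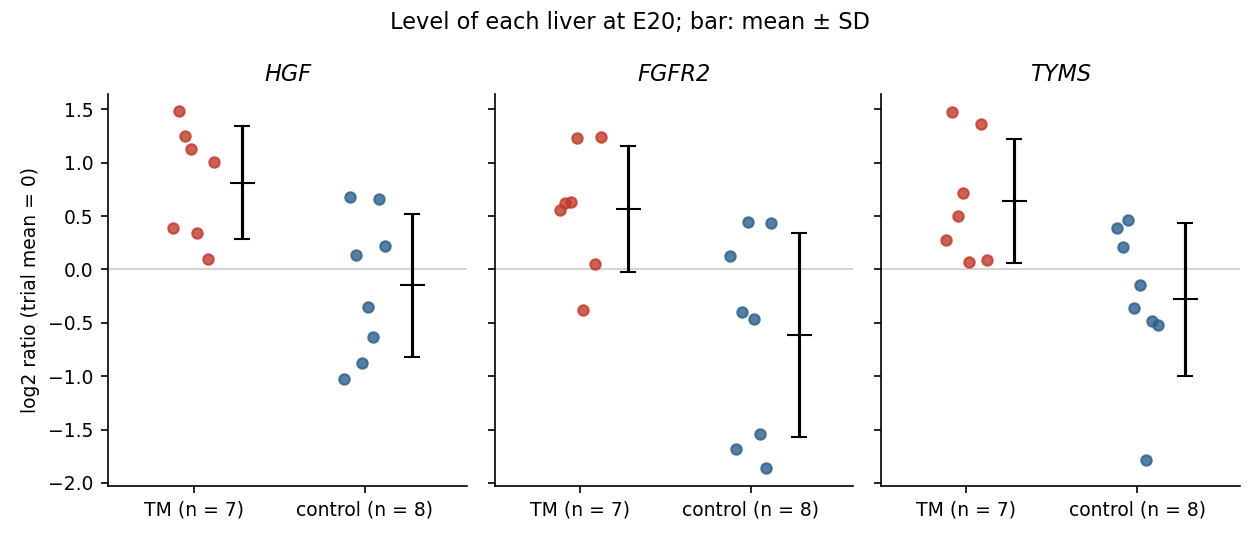
Log2 ratio of HGF, FGFR2 and TYMS in each liver at E20 (vertical axis), TM livers on the left and control livers on the right of each panel, with the mean ± SD as a bar (TM n = 7, control n = 8). All TM livers lie above the control median of each gene, and 4 TM livers for HGF, 5 for FGFR2 and 4 for TYMS lie above every control liver.

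Over all genes tested at E20, 8 of 77 passed the same exact permutation test, or 10.4%, and 7 of them were higher in TM (9.09%). HGF, TYMS and FGFR2 ranked 4, 6 and 7 of 77 by p, and 7, 8 and 5 by the signed difference, from the highest in TM downward. Some genes that were lower in TM differed by more in absolute size, such as ELP3 at −1.28. The median difference was 0.96 over the 3 genes and 0.08 over all genes tested. The 3 genes were chosen with earlier results of these data known, so these ranks and medians are no test of them as a group. Without TM replicate 1, 12 of 77 genes passed (15.6%), while the exact tests of the 3 genes stayed as they were. After correction for the number of genes none of the 3 passed, with a Benjamini-Hochberg adjusted p from limma of 0.149 for HGF, 0.156 for FGFR2 and 0.190 for TYMS. Without TM replicate 1 these adjusted p from limma were 0.135, 0.142 and 0.150. In a limma fit over all points of the second trial the unadjusted p was 0.0782 for HGF, which then did not pass, 0.00176 for FGFR2 and 0.0073 for TYMS. The 95% interval of the difference from limma was 0.29 to 1.63 for HGF, 0.32 to 2.04 for FGFR2 and 0.21 to 1.64 for TYMS.

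The Ct values behind these ratios moved in the same direction, but none of the 3 shifts passed the exact permutation test. HGF crossed the threshold at 21.1 ± 0.675 cycles in TM livers (SD, n = 7) and at 21.8 ± 1.07 cycles in control livers (n = 8, exact permutation p = 0.150). FGFR2 crossed it at 20.6 ± 0.348 cycles in TM livers and at 21.6 ± 1.28 cycles in control livers (n = 7 and 8, exact permutation p = 0.0842). For TYMS the Ct was 18.5 ± 0.898 cycles in TM livers and 19.2 ± 1.25 in control livers (n = 7 and 8, exact permutation p = 0.273). The 4 reference genes had a mean Ct of 20.2 ± 0.509 cycles in TM livers and 20.0 ± 0.724 in control livers (n = 7 and 8, exact permutation p = 0.514). Of the 0.96 log2 units for HGF, 0.72 is by construction the difference of its own Ct and the rest that of the reference genes, and the same parts were 0.94 of 1.18 for FGFR2 and 0.68 of 0.92 for TYMS.

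A further scaling subtracted from every liver its own mean over the 15 genes with a ratio in all livers of E20, and no gene of the 3 passed then. The differences were then 0.72 for HGF, 0.94 for FGFR2 and 0.68 for TYMS (exact permutation p = 0.0936, 0.0544 and 0.145). Without TM replicate 1 the centring used 46 genes, and HGF at 0.79 and FGFR2 at 1.00 passed the exact permutation test (p = 0.0376 and 0.0356), whereas TYMS at 0.74 did not (p = 0.0632). The direction was the same in each of these settings.

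**Figure D2:**
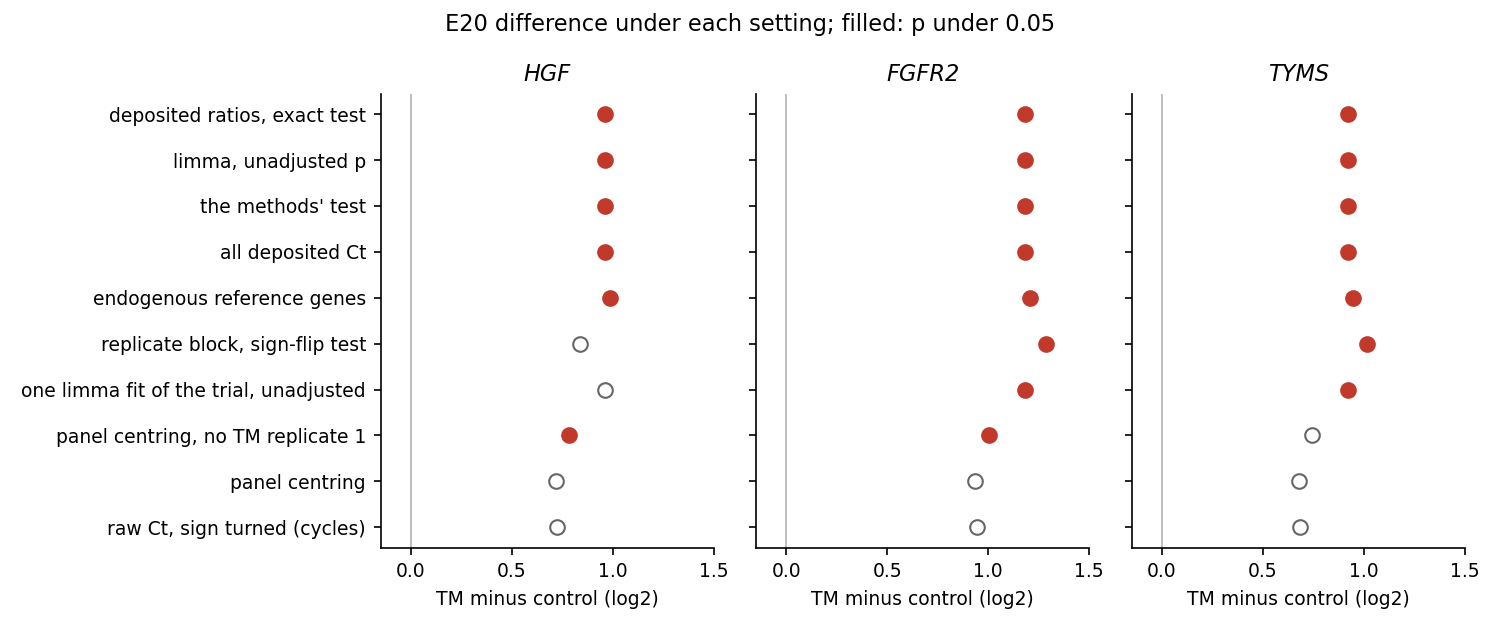
Difference between TM and control livers at E20 for HGF, FGFR2 and TYMS (horizontal axis, log2 units, or cycles with the sign turned for raw Ct) under 10 ways of processing or testing, with filled red points where the unadjusted p was under 0.05. All differences are above 0, and the points move toward 0 with panel centring and raw Ct, to 0.72 for HGF, 0.94 for FGFR2 and 0.68 for TYMS.

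The other genes that the study grouped with HGF and FGFR2 under proliferation did not pass. Of the 6 genes of that list tested at E20, HGF and FGFR2 rose in TM, none fell and 4 did not pass, and the median difference of the list was 0.02, or 0.21 without TM replicate 1. HNF4, a transcription factor of hepatocytes, averaged −0.27 ± 0.29 in TM livers (SD, n = 6) and 0.08 ± 0.65 in control livers (n = 8, exact permutation p = 0.239). TGFB1, a growth factor that restrains the division of hepatocytes, averaged −0.26 ± 3.01 in TM and 1.43 ± 0.86 in control livers (n = 6 each, exact permutation p = 0.290). POL2RC, a subunit of RNA polymerase II, averaged 0.01 ± 0.65 in TM (n = 7) and −0.39 ± 1.16 in control livers (n = 8, exact permutation p = 0.426). TUBA1C, an alpha tubulin, averaged −0.91 ± 1.95 in TM and −0.31 ± 0.17 in control livers (n = 8 each, exact permutation p = 0.500), and −0.29 ± 0.94 in TM livers without TM replicate 1 (n = 7, exact permutation p = 0.973). The differences of these 4 genes lay on both sides of 0. Of the 9 genes grouped with TYMS under epigenetics, TYMS rose, ELP3 fell and 7 did not pass. ELP3, the catalytic subunit of the Elongator complex, averaged −0.80 ± 0.72 in TM livers (SD, n = 7) and 0.48 ± 0.37 in control livers (n = 8), a difference of −1.28 with a Benjamini-Hochberg adjusted p of 0.0406 from limma. The list had a median difference of −0.04, which was 0.05 without TM replicate 1, and its members other than TYMS and ELP3 are regulators of chromatin and of DNA methylation.

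The tissue was checked by markers of its cell types. Of the 5 hepatocyte markers (ALB, HNF4, CYP2C, APOB and LIPC) none passed at E20, and 1, ALB, passed without TM replicate 1, at 1.13 ± 0.22 in TM and 0.75 ± 0.29 in control livers (n = 7 each, exact permutation p = 0.0163). Their mean log2 ratio per liver lay between 0.22 and 0.76 in TM livers without that replicate and between −0.22 and 0.79 in control livers. ALB was detected in TM replicate 1 at 22.5 cycles, and with it the lowest marker mean of the TM group was −12.98. That value is ALB alone, since no other hepatocyte marker had a ratio in this liver. Of the non-parenchymal markers, IL18, a cytokine of macrophages, was higher in TM at 0.74 ± 1.00 (n = 8) than in control livers at −1.19 ± 1.45 (n = 7, exact permutation p = 0.0117). Without TM replicate 1 IL18 averaged 0.51 ± 0.82 in TM livers (n = 7, exact permutation p = 0.0216). TGFB1 did not pass, and STAB1, a marker of sinusoidal endothelium, is one of the reference genes. The mean per liver over those of the 3 markers with a ratio lay between −1.95 and 1.36 in TM livers without TM replicate 1 and between −0.68 and 1.37 in control livers, a difference of −0.02 between the groups. TM replicate 1, for which this value is IL18 alone, stood at 2.36, and with it the difference was 0.25. Without that replicate IL18 differed by 1.70 and TGFB1 by −1.69 between the groups, so this mean joins markers of opposite direction. HGF is made by non-parenchymal cells, and the part of these markers in its level was not tested.

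At the other points none of the 3 genes passed the same test. HGF had too few control livers with a ratio at E24 and E28 (5 at each point) to be tested by the minimum of 6 livers, so 37 comparisons of a gene at a point were tested in all, and the 3 that passed were those of E20. Over all genes tested, the share that passed at a point lay between 5.41% (4 h of E13) and 17.5% (E16).

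At E12, before the increase in temperature, the TM minus control difference was 0.29 for HGF, −0.06 for FGFR2 and 0.36 for TYMS (n = 7 or 8 livers per group, exact permutation p = 0.527, 0.855 and 0.329), while 7.69% of all genes tested passed. At E16 it was 0.26, 0.28 and 0.23 for HGF, FGFR2 and TYMS (8 TM and 4 control livers, exact permutation p = 0.796, 0.519 and 0.477). At that point 17.5% of the genes passed and the median difference of all genes was 0.52, above that of each of the 3. The 4 control livers of E16 spread widely for HGF, between −2.48 and 2.32, against −1.28 to 1.99 in the 8 TM livers.

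At E24, 4 days after the difference was seen, the differences were far smaller than the spread between livers. FGFR2 averaged 0.12 ± 0.45 in TM and 0.05 ± 0.50 in control livers (SD, n = 7 each, exact permutation p = 0.794), and TYMS averaged −0.37 ± 0.56 in TM and −0.45 ± 0.48 in control livers (n = 8 each, exact permutation p = 0.732). HGF averaged 0.14 ± 0.78 in 8 TM livers and −0.03 ± 0.99 in 5 control livers. The difference was 0.18, and it was −0.03 with control replicate 3, which had a Ct but no deposited ratio (n = 8 and 6, exact permutation p = 0.956). At E24, 9.09% of the genes passed.

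At E28 the genes pointed in different directions, and none of the differences exceeded the spread between livers. FGFR2 averaged −0.57 ± 0.65 in TM and −0.05 ± 0.82 in control livers (n = 8 each, exact permutation p = 0.182). TYMS averaged −0.18 ± 0.71 in TM and −0.17 ± 0.52 in control livers (n = 8 each, exact permutation p = 0.981). HGF averaged −0.39 ± 0.92 in 7 TM livers and −1.24 ± 1.35 in 5 control livers, a difference of 0.85 that was outside the minimum of livers. With control replicate 3, which had a Ct but no deposited ratio, the control mean was −0.80 ± 1.62 (n = 6) and the difference 0.41 (exact permutation p = 0.584). The share of all genes that passed at E28 was 8.86%.

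At E30, at hatching, the 3 genes were at the lowest group means of the second trial, with positive differences that did not pass. TYMS ranged between −3.00 and −0.18 in TM livers and between −3.54 and −1.42 in control livers, and 4 of 8 TM livers lay above every control liver. It averaged −1.39 ± 0.84 in TM and −2.11 ± 0.71 in control livers, a difference of 0.72 (n = 8 each, exact permutation p = 0.0875). The differences were 0.56 for FGFR2 (n = 7 and 8, exact permutation p = 0.226) and 0.35 for HGF (n = 6 and 7, exact permutation p = 0.604). At E30, 10.0% of the genes passed.

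**Figure D3:**
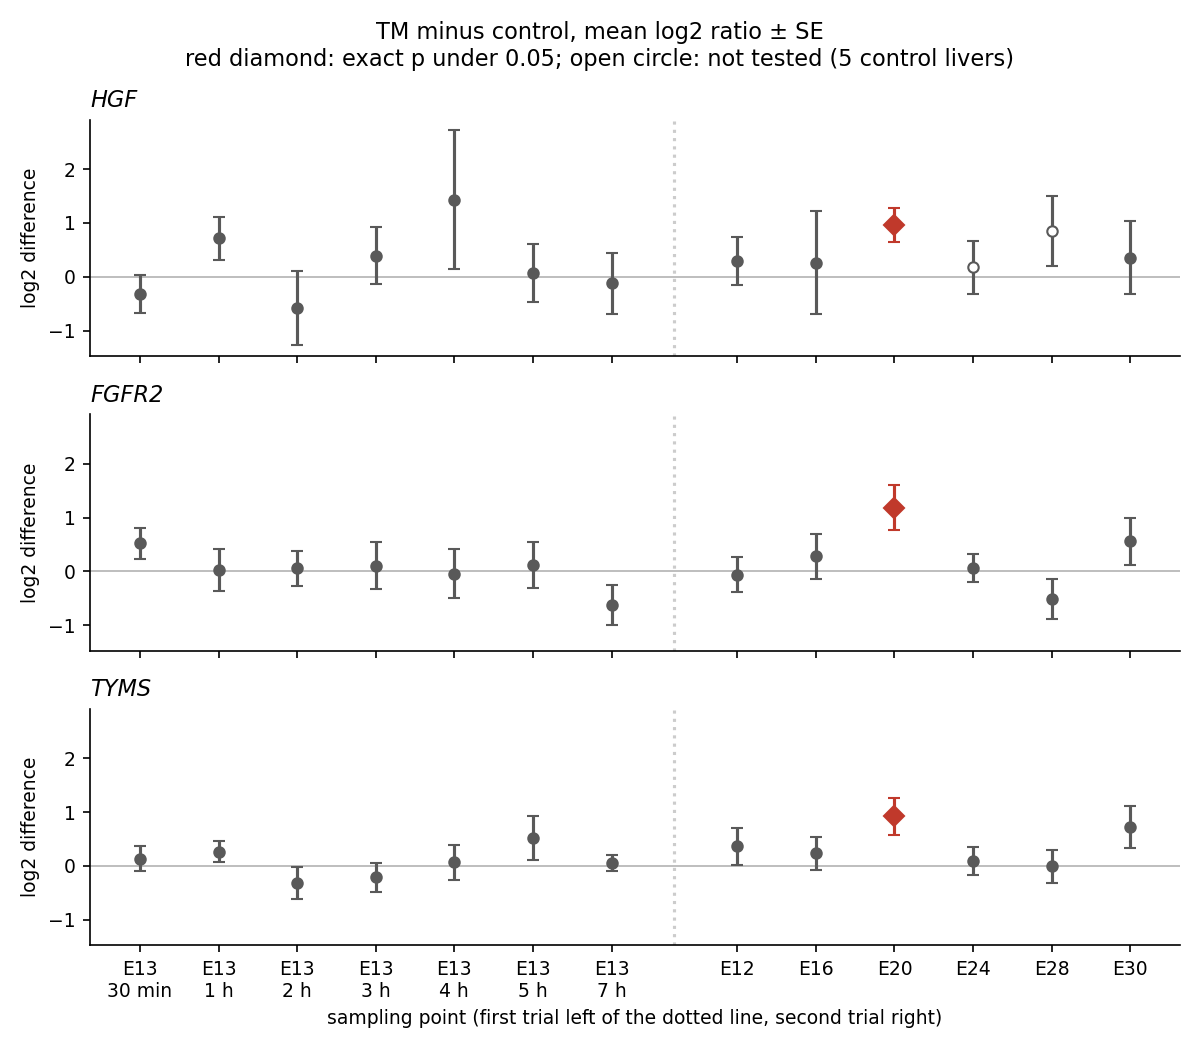
Difference of mean log2 ratio between TM and control livers ± SE (vertical axis) for HGF, FGFR2 and TYMS at the 7 points of the first trial and the 6 points of the second (horizontal axis), with red diamonds where the exact permutation p was under 0.05. Only E20 has diamonds, at 0.96, 1.18 and 0.92, and the 2 open circles of HGF, at 0.18 for E24 and 0.85 for E28, were not tested.

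Whether the difference at E20 was larger than that at another point was tested with limma, as interaction contrasts of a single fit to the second trial. None of the 15 contrasts of the 3 genes passed the Benjamini-Hochberg adjusted p. The share of all 80 genes that passed was 0% against E12, 6.25% against E16, 1.25% against E24, 0% against E28 and 1.25% against E30. FGFR2 came nearest, with a difference at E20 that was 1.69 ± 0.51 (SE) larger than at E28 (Benjamini-Hochberg adjusted p from limma of 0.102). Against E12 it was 1.24 larger and against E24 1.12 larger (adjusted p from limma of 0.492 and 0.508). For TYMS the largest contrast was 0.93 ± 0.47 (SE), against E28 (adjusted p from limma of 0.381), and for HGF it was 0.79 ± 0.80, against E24 (adjusted p of 0.890). Pairs of points without E20 were not compared in this way. With every liver centred on the 33 genes measured in at least 95% of the livers, the contrast of FGFR2 against E28 was 1.75 and passed (Benjamini-Hochberg adjusted p from limma of 0.0288). The shares above belong to the fit without this centring, and the share of all genes that passed with it is not given.

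All 3 genes fell over the course of the second trial, in both groups. In time order, the mean log2 ratio of HGF was 1.24 at E12, 0.73 at E16, 0.81 at E20, 0.14 at E24, −0.39 at E28 and −1.68 at E30 in TM livers. In control livers it was 0.95, 0.47, −0.15, −0.03, −1.24 and −2.04 at the same points. FGFR2 fell less, with 0.74, 0.44, 0.56, 0.12, −0.57 and −0.76 in TM livers and 0.80, 0.16, −0.62, 0.05, −0.05 and −1.32 in control livers. For TYMS the means were 1.68, 1.01, 0.64, −0.37, −0.18 and −1.39 in TM livers and 1.32, 0.78, −0.28, −0.45, −0.17 and −2.11 in control livers. For both HGF and FGFR2, the control mean at E20 lay below those of E16 and E24, while the TM mean at E20 lay above both.

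Between E12 and E30 the level fell by 2.93 ± 0.56 (SE) in TM and fell by 2.99 ± 0.54 in control livers for HGF (Benjamini-Hochberg adjusted p from limma of 6.72e-06 and 2.03e-06). FGFR2 fell by 1.51 ± 0.38 in TM and fell by 2.12 ± 0.35 in control livers (adjusted p from limma of 0.000367 and 2.85e-07). TYMS fell by 3.07 ± 0.32 in TM and fell by 3.42 ± 0.32 in control livers (adjusted p from limma of 7.9e-14 and 9.07e-16). This contrast was added after the course had been seen, and 58.8% of the 80 genes passed it in TM and 55.0% in control livers. Most of these genes were lower at E30, 34 against 13 higher in TM and 27 against 17 higher in control livers. The median change of all genes was −0.76 in TM and −0.32 in control livers.

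**Figure D4:**
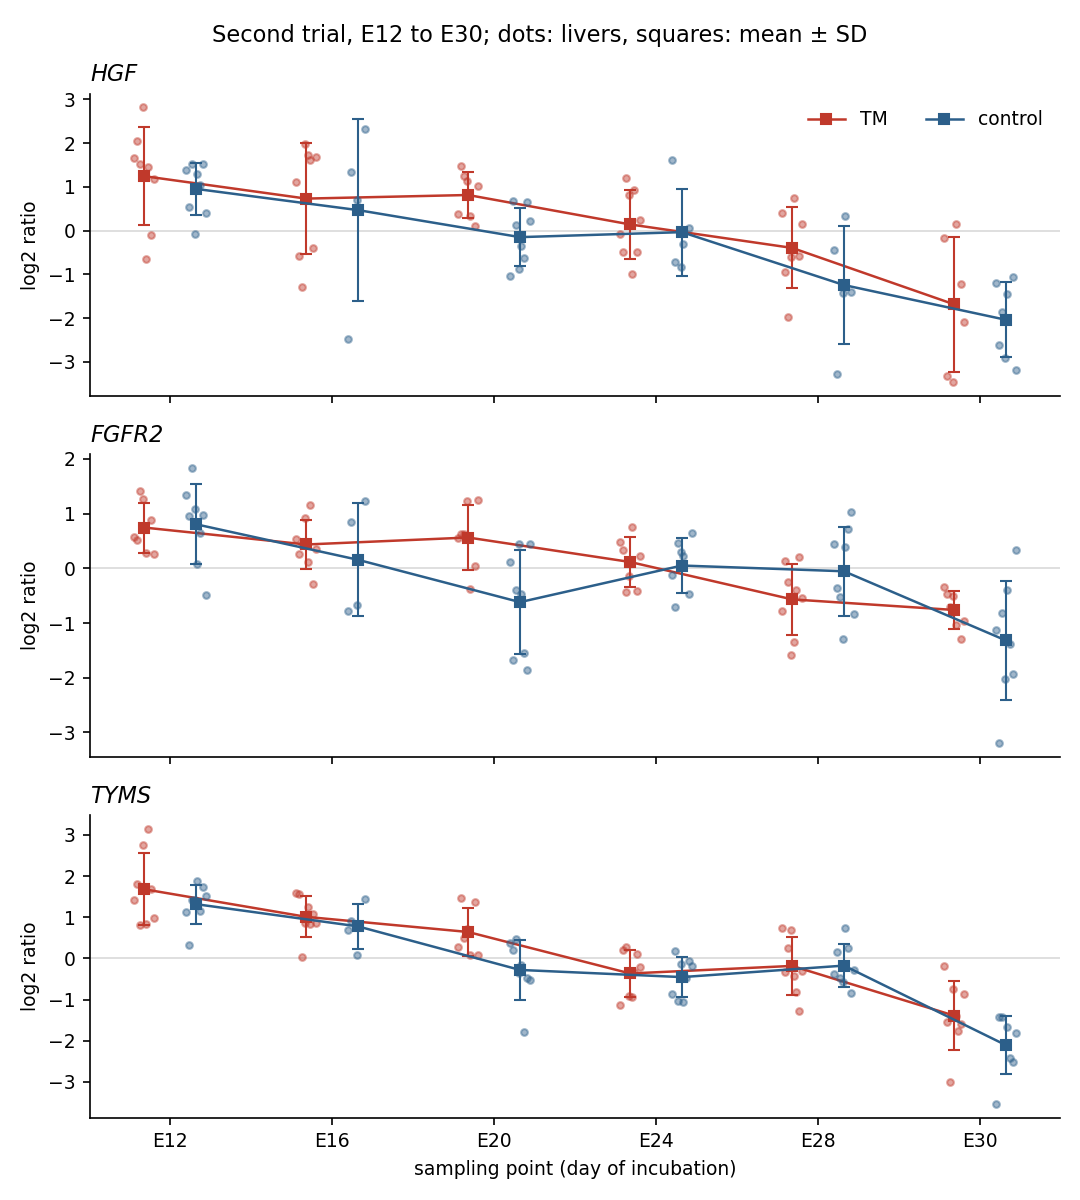
Log2 ratio of HGF, FGFR2 and TYMS (vertical axes) in TM and control livers of the second trial from E12 to E30 (horizontal axis), with dots for single livers and squares with bars for the mean ± SD. The means of all 3 genes fall between E12 and E30, in TM livers to −1.68, −0.76 and −1.39. Among the points tested, the groups passed the exact permutation test only at E20.

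Between consecutive points, the largest step of TYMS was the last in both groups. From E28 to E30 TYMS fell by 1.21 ± 0.32 (SE) in TM livers, where 33.8% of the genes passed, and by 1.93 ± 0.32 in control livers, where 28.8% passed (Benjamini-Hochberg adjusted p from limma of 0.00133 and 4.1e-07). FGFR2 fell by 1.26 ± 0.35 in control livers in the same interval (adjusted p from limma of 0.00241). In TM livers its change was −0.19 ± 0.36 (adjusted p from limma of 0.758). HGF changed by −1.29 ± 0.58 in TM and by −0.79 ± 0.61 in control livers over that interval (adjusted p from limma of 0.0831 and 0.349).

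No earlier interval passed for any of the 3 genes. The share of all genes that passed was 1.25% from E12 to E16, 10.0% from E16 to E20, 5.00% from E20 to E24 and 12.5% from E24 to E28 in TM livers. In control livers it was 12.5%, 7.50%, 6.25% and 16.2% for the same intervals. TYMS came nearest, with a change of −1.01 ± 0.33 (SE) from E20 to E24 in TM livers (Benjamini-Hochberg adjusted p from limma of 0.0559), against −0.17 ± 0.32 in control livers (adjusted p of 0.741). In control livers its nearest step was one interval earlier, −1.06 ± 0.40 from E16 to E20 (adjusted p from limma of 0.0817), against −0.37 ± 0.34 in TM livers (adjusted p of 0.525). These steps were not compared with each other by a test of their own.

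When the points were ordered by their mean, few neighbours differed. The neighbours were taken from the order of the same means, so the unadjusted p below do not test that order. The share of all genes that would pass is not given, and the order in TM livers was not in the plan. For TYMS the order in TM livers was E12, E16, E20, E28, E24 and E30, and exact permutation tests separated E28 from E20 (p = 0.0325) and E30 from E24 (p = 0.0104). In control livers it was E12, E16, E28, E20, E24 and E30, with steps between E28 and E16 (exact permutation p = 0.0242) and between E30 and E24 (p = 0.000155). For FGFR2 the single separated neighbours in TM livers were E28 and E24 (exact permutation p = 0.0373), and E20 ranked 2 of 6 in TM but 5 of 6 in control livers. For HGF no neighbours were separated in either group, and E20 ranked 2 of 6 in TM and 4 of 6 in control livers.

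The first trial followed the first 7 h after the incubators were warmed, and the 3 genes had no common course in it. No difference between TM and control livers passed the exact permutation test at any of the 7 points. Of all genes tested, the share that passed was 7.79% at 30 min, 10.7% at 1 h, 6.58% at 2 h, 12.2% at 3 h, 5.41% at 4 h, 14.5% at 5 h and 13.7% at 7 h.

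HGF was 0.71 higher in TM livers at 1 h, at 0.45 ± 0.90 against −0.26 ± 0.71 in control livers (SD, n = 8 each, exact permutation p = 0.101). Its largest difference, 1.43 at 4 h, rested on 1 liver, control replicate 1 with a log2 ratio of −7.93 and a Ct of 30.3 cycles. Without that liver HGF averaged −0.57 ± 0.89 in TM (n = 6) and −0.82 ± 0.99 in control livers (n = 5), a difference of 0.24 (exact permutation p = 0.662). At 2 h the 6 TM livers ranged between −3.06 and 0.92 and the 7 control livers between −0.59 and 1.00.

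On the deposited ratios FGFR2 differed most at the ends of the series. At 30 min it averaged 0.03 ± 0.28 in TM (n = 7) and −0.49 ± 0.72 in control livers (n = 8), a difference of 0.52 (exact permutation p = 0.0850). With all deposited Ct, which add TM replicate 7 and leave out control replicate 1, the difference was 0.27 (n = 8 and 7, exact permutation p = 0.492). At 7 h it averaged −0.33 ± 0.91 in TM (n = 8) and 0.29 ± 0.42 in control livers (n = 7), a difference of −0.62 in the other direction (exact permutation p = 0.105). With control replicate 6, which had a Ct but no deposited ratio, it was −0.80 and passed (n = 8 each, exact permutation p = 0.0488). The Ct of FGFR2 itself at 7 h was 20.9 ± 1.47 cycles in TM and 21.2 ± 0.493 in control livers (SD, n = 8 each). Its lower mean Ct in TM points in the direction opposite to the ratio, and that shift was not tested. The 4 reference genes at 7 h had a mean Ct of 18.2 ± 0.870 cycles in TM and 19.4 ± 1.05 in control livers (n = 8 each, exact permutation p = 0.00497), and with the endogenous reference genes alone FGFR2 differed by −0.43 (exact permutation p = 0.378). At 4 h FGFR2 was lowest in both groups on the deposited ratios, at −0.66 ± 0.41 in TM and −0.62 ± 1.13 in control livers (n = 7 each). The control mean included replicate 1 at −2.89. With all deposited Ct the control mean was −0.40 at 4 h (n = 8) and lower at 30 min, −0.52 (n = 7).

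TYMS was the steadiest of the 3 genes at E13 on the deposited ratios. Its group means lay between −0.19 and 0.16 in TM livers and between −0.37 and 0.16 in control livers. The largest difference was 0.52 at 5 h, at 0.15 ± 0.49 in TM (n = 7) and −0.37 ± 0.98 in control livers (n = 8, exact permutation p = 0.231). That control mean included replicate 3 at −2.12, with a Ct of 22.6 cycles, the highest of TYMS over all livers. With all deposited Ct, control replicate 6 at 7 h came to 2.33, and the control mean there was 0.31 ± 0.84 (n = 8). The difference at 7 h was then −0.23 (n = 8 each, exact permutation p = 0.646), against 0.06 on the deposited ratios.

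Within a group, 30 min and 7 h could be compared in livers from the same incubator. FGFR2 rose by 0.79 in control livers, to 0.29 at 7 h against −0.49 at 30 min (n = 7 and 8, exact permutation p = 0.0210), while 16.7% of the genes passed in control livers. Its Benjamini-Hochberg adjusted p from limma was 0.170, and with the endogenous reference genes alone the change was 0.56 (exact permutation p = 0.156). In TM livers FGFR2 changed by −0.36 (n = 8 and 7, exact permutation p = 0.382), and 9.09% of the genes passed. HGF and TYMS changed by −0.04 each in TM livers, and by −0.24 and 0.04 in control livers, without passing. No neighbours in the order of the 7 points were separated for any of the 3 genes in either group (smallest exact permutation p = 0.216).

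**Figure D5:**
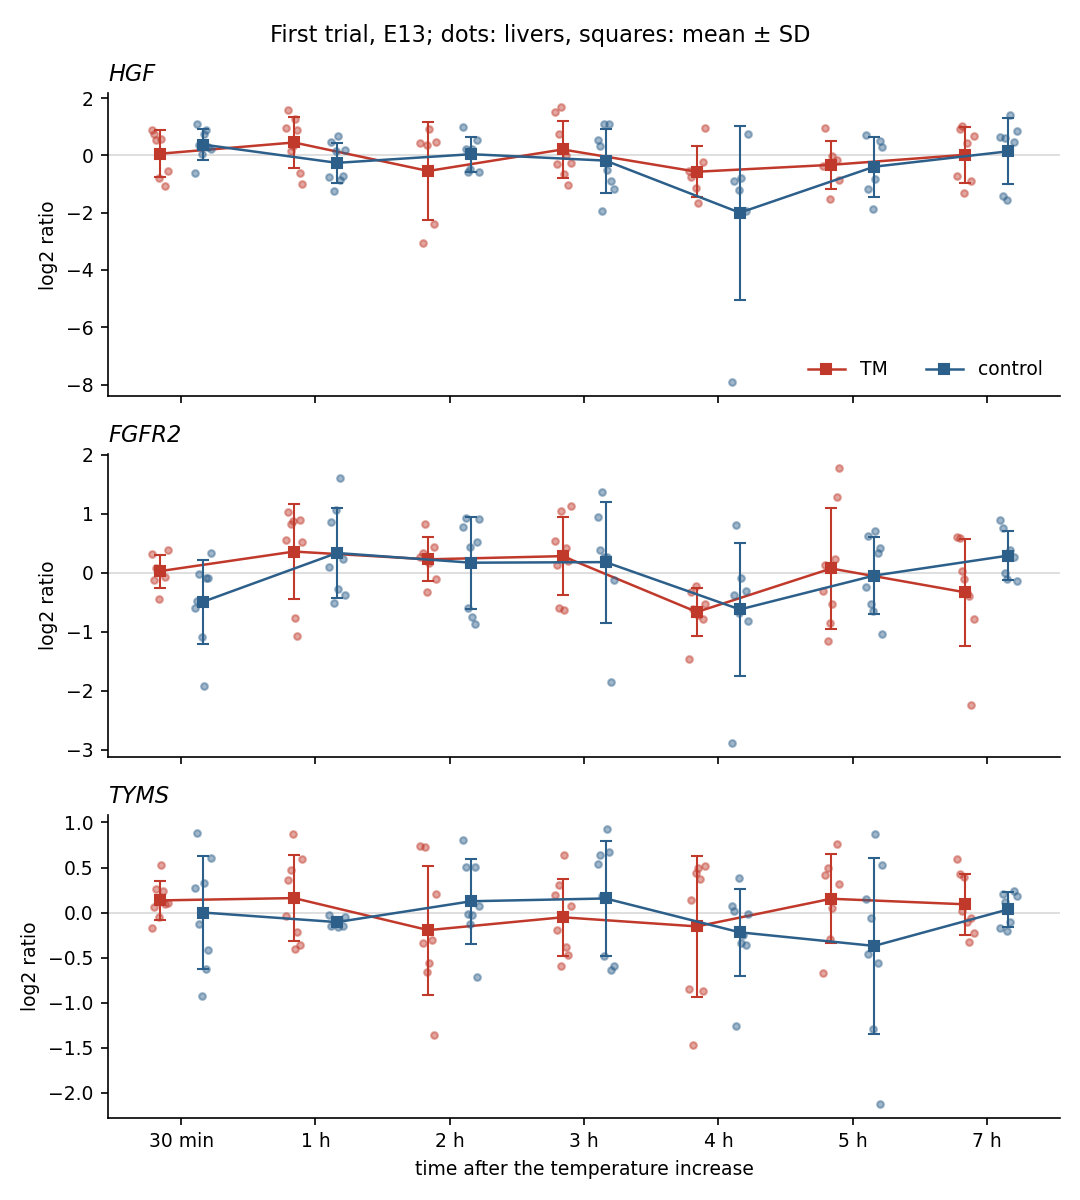
Log2 ratio of HGF, FGFR2 and TYMS (vertical axes) in TM and control livers at the 7 points of E13 (horizontal axis), with dots for single livers and squares with bars for the mean ± SD. The groups overlap at every point, and the lowest dot, at −7.93, is control replicate 1 of HGF at 4 h.

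The 3 genes followed each other over the second trial. Over the 12 group means, Pearson's r was 0.92 between HGF and TYMS, 0.91 between FGFR2 and TYMS and 0.89 between HGF and FGFR2. Among the 79 other genes compared, TYMS was the gene most like both HGF and FGFR2, and the median r of all genes was 0.36 for HGF, 0.34 for FGFR2 and 0.39 for TYMS. Outside the 3 genes, HGF and TYMS were most like ACAT1, a mitochondrial enzyme of ketone body and isoleucine metabolism (r of 0.92 and 0.88). The gene that ran most against them was ChREBP, a transcription factor activated by carbohydrate, for HGF and TYMS (r of −0.86 and −0.88), and ELOVL6, an enzyme of fatty acid elongation, for FGFR2 (r of −0.77). These correlations describe 12 means that share livers, reference genes and the course of development. With each liver centred on the 33 genes measured in at least 95% of the livers, the r among the 3 genes was 0.93, 0.92 and 0.92. After this centring HGF was slightly more like ACAT1 (r of 0.94) than TYMS, and TYMS was not the gene most like FGFR2. The r of ChREBP was then −0.59 with HGF and −0.67 with TYMS, and that of ELOVL6 with FGFR2 was −0.92. Over the 14 group means of E13, r was 0.57 between HGF and TYMS, 0.49 between HGF and FGFR2 and 0.33 between FGFR2 and TYMS. There the r of ACAT1 was 0.37 with HGF and 0.22 with TYMS. That of ChREBP was −0.42 with HGF and −0.07 with TYMS, and that of ELOVL6 with FGFR2 was 0.05.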

How the data were processed

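HGF, FGFR2 and TYMS and the gene lists were chosen with earlier results of these data known. Total RNA of whole livers was reverse transcribed with luciferase RNA as an exogenous control, pre-amplified and measured by the authors on a Fluidigm chip with EvaGreen. The Ct were deposited by the authors in cycles for 204 livers (a measure with no normalization). The authors deposited a ratio, 2 to the power of −∆∆Ct, for 205 livers, against 4 reference genes (ACTB, LUCIFERASE, STAB1 and USP9X in the first trial, HPRT1 in place of ACTB in the second). The ratios could be recomputed from the Ct with the geometric mean of the reference Ct, and in the second trial with the mean ∆Ct of the gene over its livers. The submitters' processing notes name R 3.6.2. For 20 values of the 3 genes a Ct had no ratio, and these were left out as in the ratios. The 81 genes of the study's figures were used. Replicates are separate livers, and the number of livers and reference genes limits the precision of each value.

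The log2 of each ratio was taken, with no pseudocount. TM and control livers were compared at each point, trials apart, with an exact permutation test (two-sided, difference of means) at an unadjusted threshold of 0.05, as the methods use, and by limma with Benjamini-Hochberg adjustment, where each group had at least 6 livers with a ratio (4 at E16). Changes between points of the second trial and interactions were fitted by limma over its 12 groups (at least 3 livers per group). Both tests were tested on simulated data. Alternatives were all deposited Ct, endogenous reference genes, panel centring, a replicate block, the methods' Student or Wilcoxon choice, limma's unadjusted p and leaving out livers. Named genes are the 3, the most and least alike in the second trial, and list members that passed at E20, and TGFB1, HNF4, POL2RC, TUBA1C, ALB and IL18 were named after their values were seen. One gene that the rule names is not reported here. Python 3.11.15, SciPy 1.17.1, R 4.3.3 and limma 3.58.1 were used.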

Additional observations from a re-analysis of the deposited data

Results flagged for a closer look

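Of 78 groups of livers for the 3 genes, 3 held a value whose gap to the next liver was unusually large for the range of its group, and chance gives about 1 in 20. HGF in control replicate 1 at 4 h of E13 had a log2 ratio of −7.93, the next liver being −1.95. TYMS in control replicate 7 at 4 h had −1.25, the next being −0.36. TYMS in control replicate 8 at E20 had −1.78, the next being −0.52, and the TM difference at E20 without that liver is given above.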

How the results depend on the processing

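The E20 differences stayed positive in every setting run. Panel centring lowered them to 0.94 for FGFR2, 0.72 for HGF and 0.68 for TYMS, below the threshold, and raw Ct with the sign turned gave 0.94, 0.72 and 0.68 cycles. Centring moved the median difference of all genes at E20 to −0.11, against 0.08, and the genes passing to 4, with 1 higher and 3 lower, against 8, with 7 higher and 1 lower. With all deposited Ct 4 genes passed at E20, with endogenous reference genes 13. Centring without TM replicate 1, added after seeing the data, gave 0.74 for TYMS, which did not pass. HGF did not pass with one limma fit of the trial (0.96, unadjusted p = 0.0782) or with the replicate block (0.84, exact sign-flip p = 0.0625). The replicate numbers are not known to pair livers: deviations of same-numbered livers correlated above 0.1 in 28 of 101 pairs. The block changed no call of FGFR2 or TYMS at E20. Leaving out each E20 liver in turn gave 0.84 to 1.08 for HGF, 1.00 to 1.34 for FGFR2 and 0.71 to 1.03 for TYMS, all past the threshold. The number of comparisons that passed was 3, and 1 with panel centring, namely TYMS at E30 (0.78, exact permutation p = 0.0210, with and without the livers that had luciferase only). TYMS at E30 also passed in one limma fit of the trial (0.72, unadjusted p = 0.0294). With all deposited Ct FGFR2 at 7 h also passed (−0.80, exact permutation p = 0.0488), and with the block FGFR2 at 30 min (0.59, p = 0.0156). Of the other 34 tested comparisons, 14 changed sign in at least 1 setting. Leaving out each E16 liver gave −0.72 to 0.88 for HGF, −0.03 to 0.64 for FGFR2 and 0.00 to 0.45 for TYMS, none past the threshold. The rise of FGFR2 in control livers of E13 was 0.56 with endogenous reference genes and did not pass. Centring of the second trial on genes of 95% of the livers, used because 1 gene only had a ratio in every liver, brought 1 interaction of the 3 genes past the adjusted p, against 0: FGFR2 at E20 against E28, 1.75 (Benjamini-Hochberg adjusted p from limma of 0.0288). How many of all genes passed with that centring is not given. The cause was not tested in these cases. The falls to E30 that passed did so in all settings.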

Other observations

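Of the 20 values of HGF, FGFR2 and TYMS with a Ct but no deposited ratio, 17 gave, when recomputed from the Ct, a log2 ratio above every other liver of their group, 2 gave one below and 1 lay inside the range. They were 7 of HGF, 9 of FGFR2 and 4 of TYMS, and none was at E20. FGFR2 in control replicate 6 at 7 h was one of them, with a Ct of 22.0 cycles and a recomputed log2 ratio of 1.68, against −0.14 to 0.90 in the other control livers. In the control group of TYMS at 1 h, 2 such livers came to −0.41 and 0.92, while the 6 with a ratio lay between −0.16 and −0.02. Recomputed values of E13 have a slightly different zero: TYMS in TM livers at 1 h averaged 0.14 recomputed and 0.16 as deposited.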
